A study of Homo sapiens with 60 samples.

Results

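The 8 aldehyde dehydrogenases ALDH3A1, ALDH3A2, ALDH1A1, ALDH1A3, ALDH1B1, ALDH2, ALDH7A1 and ALDH9A1 were followed through 60 RNA-seq libraries of the established colorectal adenocarcinoma line HT29 (human), as 8 of 60675 gene entries and 8 of the 19 genes of the family. They were taken by symbol from the table of expected counts, and all 8 passed the filter on low counts and were among the 17089 genes tested. They were chosen by their levels and changes in these same libraries, without a record of which comparison was used, so the tests below set each change against the spread between libraries and are not independent support for a change in any member. The cells were harvested 24 h after addition of an ethanol extract of a medicinal plant. Cnidii Rhizoma, Astragali Radix, Rehmanniae Radix Preparata, Cinnamomi Cortex and Paeoniae Radix were each given at 20, 100 and 500 µg/mL (low, medium and high) with 3 libraries per dose. Angelicae Gigantis Radix was given at 12.8, 64 and 320 µg/mL with 2 libraries per dose. The formulas Samul-tang and Sagunja-tang had 20, 100 and 500 µg/mL with 1 library per dose. The 3 vehicle libraries carried dimethyl sulfoxide (DMSO), at 0.1% in the sample labels and 2% in the series text, so the solvent level behind every comparison with vehicle is uncertain. All groups are the same unmodified line, so differences between tumours or donors are not covered. Whether replicate libraries are separate cultures is not in the labels, so a p-value reflects only library-to-library spread, possibly technical. In bulk RNA, fewer cells of a type and less RNA per cell cannot be told apart.

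Aldehyde dehydrogenases oxidise reactive aldehydes to carboxylic acids with NAD or NADP as electron acceptor. ALDH3A1 and ALDH3A2 handle aldehydes from lipids: ALDH3A1 is a cytosolic enzyme known for clearing products of lipid peroxidation, and ALDH3A2 is the membrane-bound fatty aldehyde dehydrogenase of the endoplasmic reticulum. ALDH1A1 and ALDH1A3 are cytosolic retinal dehydrogenases that make retinoic acid, and ALDH1A1 activity is widely used to mark stem-like cells in colorectal tumours. ALDH1B1 and ALDH2 are mitochondrial, and ALDH2 is best known for oxidising the acetaldehyde formed from ethanol. ALDH7A1 acts on a semialdehyde of lysine breakdown, and ALDH9A1 on an aldehyde intermediate of carnitine synthesis. Background work ties several of these enzymes to NRF2, a transcription factor that responds to electrophiles and oxidants, and ALDH3A1 also to the aryl hydrocarbon receptor (AhR), which responds to planar aromatic ligands.

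Library totals ranged from 17798492 to 31134188 counts, and 21247 to 24191 genes had a count. The 3 Astragali Radix high libraries stood apart. Their TMM scaling factors (trimmed mean of M values) were 0.773 to 0.838, against 0.968 to 1.037 in the other libraries of the model, and their mitochondrial shares of counts were 1.987%, 6.724% and 7.818%, against 6.91% to 12.3% elsewhere. Pairs of the Astragali Radix high libraries differed in their counts by a chi-square of 82.3 to 198 per gene, against 1.86 to 12.6 for pairs within the other groups. Each member's change from the low to this high dose is therefore given also with scaling by library totals and without single libraries. Of the epithelial markers, EPCAM was at 498.6 to 1058 CPM (counts per 1000000 counts of the library) and KRT20 at 263.9 to 917 CPM, while CDX1 was at or under 1.29 CPM. Of the markers of other cell types, PTPRC and CD3E of leukocytes, CDH5 of endothelium, COL1A2 and DCN of fibroblasts, and ALB and APOB of hepatocytes were at a median of 0 CPM, VWF and CYP3A4 reached at most 0.506 CPM, and CD14 was at 1.18 to 6.73, PECAM1 at 0.537 to 2.53, COL1A1 at 0.797 to 7.25 and TTR at 0.103 to 0.781 CPM. The part of these low levels in the results was not tested.

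In vehicle-treated cells ALDH1A1 was by far the most abundant member. Per kilobase of transcript its mean was 352 ± 31.1 CPM (SD, n = 3). ALDH3A2 followed at 24.6, ALDH9A1 at 16.1, ALDH3A1 at 13.6, ALDH1B1 at 11.6, ALDH1A3 at 7.92, ALDH7A1 at 6.46 and ALDH2 at 4.89 CPM per kilobase. Length was that of the longest transcript tagged as principal isoform (APPRIS), from 1925 bases in ALDH3A1 to 9569 in ALDH2. Before division by length ALDH2 was at 46.8 and ALDH3A1 at 26.2 CPM, so the order depends on the transcript taken. Of the family members outside the list, ALDH18A1 was at 52.1 and ALDH3B1 at 28.3 CPM per kilobase, while ALDH1A2, a further retinal dehydrogenase, was at 0.0074. On GRCh38 (GENCODE v29), ALDH3A2 (chromosome 17, 19648136 to 19677598, plus strand) and ALDH3A1 (chromosome 17, 19737984 to 19748943, minus strand) lie 60386 bases apart. Whether other genes lie between them was not examined. The other members lie apart: ALDH1A1 on chromosome 9 (72900662 to 73080442, minus strand), ALDH1B1 on chromosome 9 (38392664 to 38398661, plus strand), ALDH1A3 on chromosome 15 (100877714 to 100916626, plus strand), ALDH2 on chromosome 12 (111766887 to 111817529, plus strand), ALDH7A1 on chromosome 5 (126531200 to 126595418, minus strand) and ALDH9A1 on chromosome 1 (165662216 to 165698863, minus strand).

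Does the level of these enzymes follow the dose of an extract? With Cnidii Rhizoma, 5 of the 8 members passed an adjusted p of 0.05 at the high against the low dose, where 10.2% of all genes tested did so, 5.39% higher and 4.82% lower. These were 921 genes higher and 823 lower, and with library totals 650 and 1109. ALDH3A1, ALDH3A2 and ALDH1A1 rose and ALDH1A3 and ALDH7A1 fell, and the median log2 change was 0.10 over the members and 0.00 over all genes. ALDH1B1, ALDH2 and ALDH9A1 did not pass. At the medium dose 3 of the 8 members passed, ALDH3A1, ALDH3A2 and ALDH1A1, all higher, where 0.211% of all genes passed and 0.14% were higher.

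The lipid aldehyde enzymes rose stepwise with the dose of Cnidii Rhizoma. ALDH3A1 was at 30.1, 29.2 and 30.7 CPM in the low libraries, at 47.1, 47.1 and 50.4 in the medium libraries and at 132.2, 132.7 and 132.9 in the high libraries. All 9 libraries kept the order of their doses, and the high dose held the highest ALDH3A1 levels of all 60 libraries. The high dose raised ALDH3A1 by 2.20 ± 0.10 (log2 ± SE, edgeR quasi-likelihood test, adjusted p = 4.89e-21), a fold of 4.58, and the medium dose by 0.71 ± 0.10 (edgeR adjusted p = 1.96e-05). ALDH3A2, also on chromosome 17, was at 114, 112 and 120.1 CPM (low), 135, 144 and 143 CPM (medium) and 198, 201 and 192 CPM (high). The 3 doses did not overlap here either. Its change was 0.82 ± 0.05 at the high dose (edgeR adjusted p = 9.49e-18, fold 1.77) and 0.31 ± 0.05 at the medium dose (edgeR adjusted p = 6.19e-05). With no filter on low counts the medium change of ALDH3A2 was not called (adjusted p = 0.114).

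The retinal dehydrogenases ALDH1A1 and ALDH1A3 went in opposite directions with Cnidii Rhizoma. ALDH1A1 had 899.8, 869.5 and 903 CPM at the low dose, 1009, 1042 and 1017 CPM at the medium dose and 1732, 1641 and 1592 CPM at the high dose. High libraries were above all others of the extract, and the medium libraries lay closer to the low than to the high ones. ALDH1A1 rose by 0.94 ± 0.05 at the high dose (edgeR adjusted p = 1.59e-19, fold 1.92) and by 0.22 ± 0.05 at the medium dose (edgeR adjusted p = 0.0144). The medium call is fragile: it was lost with library totals (adjusted p = 0.156), with no filter (0.859) and without any of 5 of the 6 libraries (0.0584 to 0.176). ALDH1A3 was at 25.5, 26.8 and 27.9 CPM (low), 23.1, 21.4 and 22.5 CPM (medium) and 10.7, 11.1 and 11.5 CPM (high). Its high libraries were the lowest of all 60. ALDH1A3 fell by 1.21 ± 0.13 on the log2 scale at the high dose (edgeR adjusted p = 3.79e-09), and its medium change of -0.24 ± 0.13 was not called (edgeR adjusted p = 0.932).

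ALDH1A3 overlaps an antisense gene on the other strand, ALDH1A3-AS1, and the strand setting of the counting is not given in the sources used here. ALDH1A3-AS1 was at 13.3, 14.2 and 13.4 CPM with low and 11.5, 11.5 and 10.7 CPM with high Cnidii Rhizoma, a change of -0.23 ± 0.08 (edgeR adjusted p = 0.0594). Its part in the change of ALDH1A3 was not tested.

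The enzymes of amino acid, carnitine and acetaldehyde oxidation moved less with Cnidii Rhizoma than the members above, and of them only ALDH7A1 was called. ALDH7A1 went from 39.5, 38.4 and 41.3 CPM (low) to 31.1, 32.7 and 29.3 CPM (high). The groups did not overlap, and the change was -0.31 ± 0.07 (edgeR adjusted p = 0.00329). ALDH2 was at 49.8, 53.8 and 51.0 CPM with the low dose and 59.3, 59.2 and 52.7 CPM with the high dose, and 1 high library lay among the low ones. Its change of 0.20 ± 0.09 was not called (edgeR adjusted p = 0.19), although it was once the Astragali Radix high libraries were left out (0.00108). ALDH1B1 changed by 0.01 ± 0.05 and ALDH9A1 by -0.03 ± 0.06, with 95% intervals of -0.08 to 0.10 and -0.15 to 0.09.

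**Figure D1:**
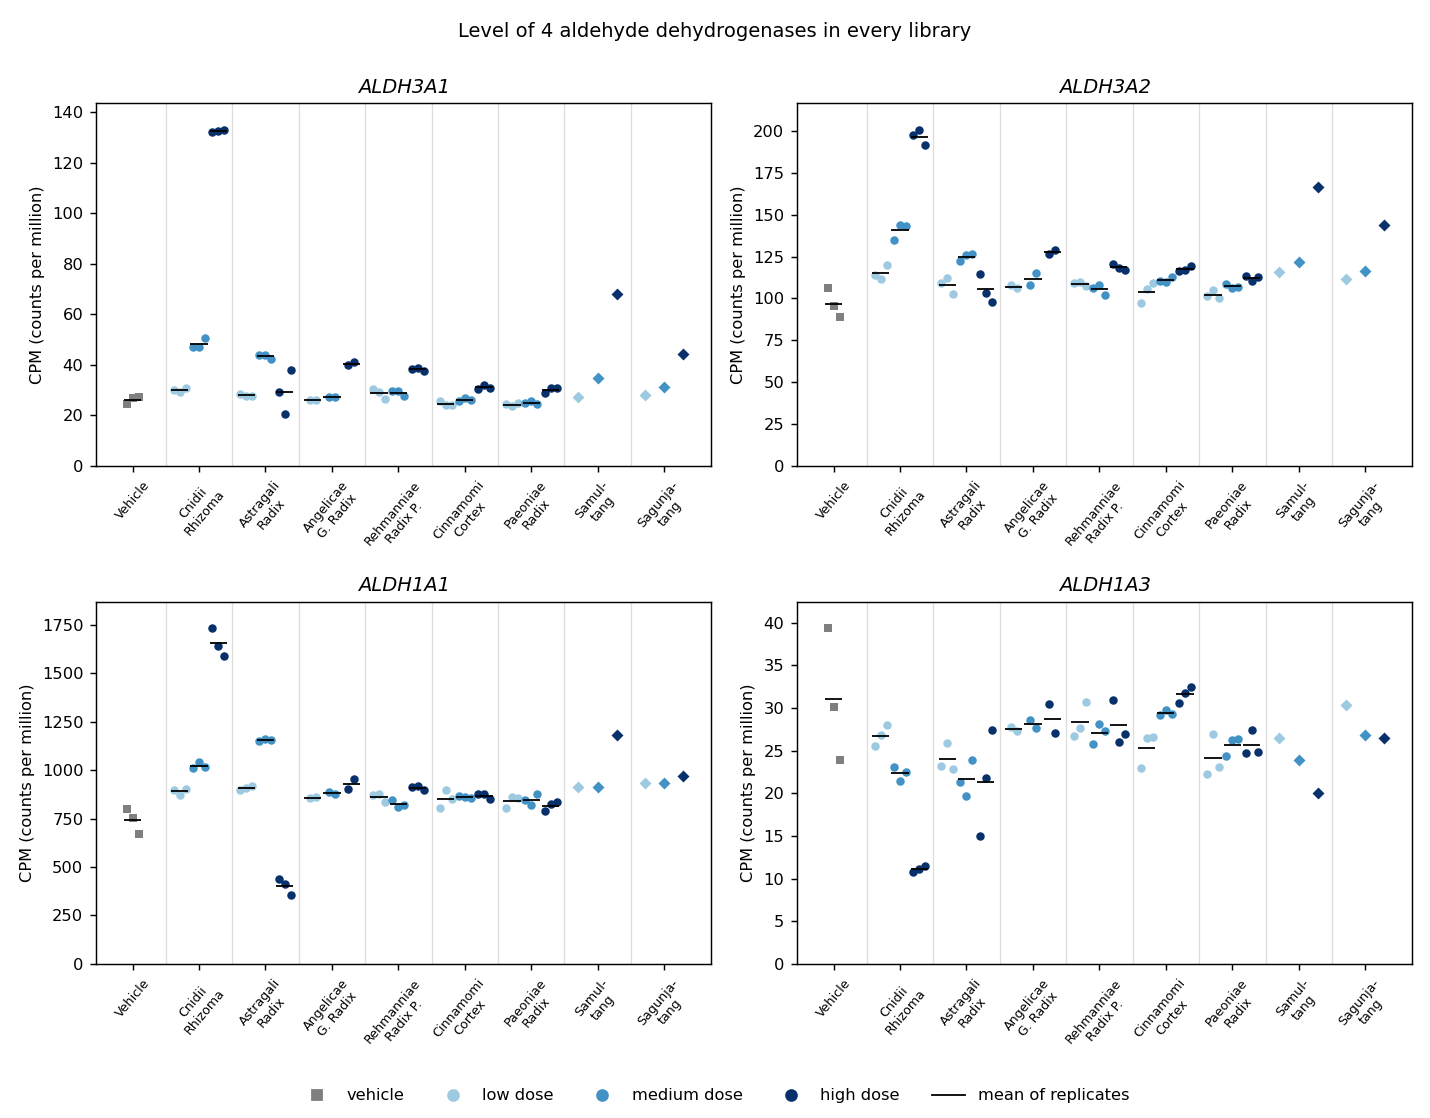
CPM of ALDH3A1, ALDH3A2, ALDH1A1 and ALDH1A3 (y axes, from 0) in each of the 60 libraries, by extract or formula (x axis) and dose (colour). Points are libraries, bars are means of 2 or 3 replicates, and formulas have 1 library per dose. With Cnidii Rhizoma the first 3 genes climb with dose and ALDH1A3 drops to 10.7 to 11.5 CPM, while ALDH1A1 with Astragali Radix peaks at the medium dose and drops to 355 to 436 CPM at the high dose.

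To show what lies upstream of the members that moved with Cnidii Rhizoma, the 250 bases before the RefSeq starts of ALDH1A1, ALDH1A3 and ALDH3A2 are printed 5′ to 3′ on the gene's strand, from RefSeq on GRCh38.p14. They show 2 genes that rose beside ALDH1A3, which fell more than ALDH7A1, the other member that fell. ALDH3A1, the member that rose most, had no entry among these promoters and is not shown. The RefSeq starts of ALDH1A1, ALDH1A3 and the second ALDH3A2 entry lie inside the GENCODE gene spans given above, so the annotations differ in where these genes begin. Capitals mark matches, on either strand, to the AhR core GCGTG. The first is chr9:72953054-72953303 (minus strand), the second chr15:100879581-100879830, and the last lines are the 2 ALDH3A2 entries, chr17:19647886-19648135 and chr17:19648501-19648750 (plus strand for these 3).
ALDH1A1: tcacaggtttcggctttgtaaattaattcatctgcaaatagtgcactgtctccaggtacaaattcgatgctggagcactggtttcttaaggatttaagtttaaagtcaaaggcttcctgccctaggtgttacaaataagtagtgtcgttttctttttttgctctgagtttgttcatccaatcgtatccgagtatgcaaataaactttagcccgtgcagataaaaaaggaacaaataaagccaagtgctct
ALDH1A3: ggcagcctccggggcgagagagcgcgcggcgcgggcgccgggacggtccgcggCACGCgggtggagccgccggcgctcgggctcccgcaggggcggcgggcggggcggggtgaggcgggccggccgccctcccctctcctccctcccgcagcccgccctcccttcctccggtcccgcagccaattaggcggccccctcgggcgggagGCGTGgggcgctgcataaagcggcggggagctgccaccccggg
ALDH3A2 entry 1: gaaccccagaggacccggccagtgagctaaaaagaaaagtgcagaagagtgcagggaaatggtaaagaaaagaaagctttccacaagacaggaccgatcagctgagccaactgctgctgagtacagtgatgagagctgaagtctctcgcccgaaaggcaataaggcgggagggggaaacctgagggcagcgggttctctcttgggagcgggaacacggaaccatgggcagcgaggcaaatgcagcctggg
ALDH3A2 entry 2: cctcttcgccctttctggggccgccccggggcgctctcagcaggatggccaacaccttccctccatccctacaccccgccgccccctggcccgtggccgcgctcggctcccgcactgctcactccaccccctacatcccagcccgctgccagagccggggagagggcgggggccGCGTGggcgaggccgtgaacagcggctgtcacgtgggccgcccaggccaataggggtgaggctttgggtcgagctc
The windows differ in composition. The ALDH1A1 window holds 6 CpG and 38.4% G or C, the ALDH1A3 window 38 CpG and 82.4%, and the ALDH3A2 windows 9 and 22 CpG with 55.6% and 73.2%. The median of all 35116 promoters in the table was 11 CpG and 58% G or C. The antioxidant response core TGACNNNGC, the motif bound by NRF2, was searched on both strands and had no match in the 7 windows of the 6 members with an entry, and 10.9% of all promoters hold it. The AhR core GCGTG had 2 matches in ALDH1A3 and 1 in the second ALDH3A2 window, and 32.2% of all promoters hold it. ALDH3A1 and ALDH2 had no entry, so neither core was searched for in them. A match is a run of letters and not a shown binding site.

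With Astragali Radix ALDH3A1, ALDH3A2 and ALDH1A1 rose at the medium dose. Here 3 of the 8 members passed, all higher, where 4.18% of all genes did and 0.96% were higher. ALDH3A1 went from 28.4, 27.7 and 27.7 CPM (low) to 43.8, 43.7 and 42.3 CPM (medium), a change of 0.70 ± 0.10 (edgeR adjusted p = 3.55e-06). ALDH3A2 went from 109, 112 and 102.5 CPM to 122, 126 and 126 CPM, a change of 0.28 ± 0.05 (edgeR adjusted p = 6.02e-05). With no filter on low counts that call of ALDH3A2 was lost (0.0966). ALDH1A1 went from 896, 907 and 919 CPM to 1152, 1161 and 1158 CPM, a change of 0.41 ± 0.05 (edgeR adjusted p = 3.5e-08). In all 3 genes every medium library was above every low one.

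At the high dose of Astragali Radix the pattern turned. There 6 of the 8 members passed, 3 higher and 3 lower, where 70.2% of all genes passed (36.1% higher and 34.1% lower), so the count is near the background. Of all genes 6176 were higher and 5821 lower, and with library totals 4057 and 8431. ALDH1A1 fell to 436, 410.4 and 355 CPM, the lowest levels of the gene in the 60 libraries and under the vehicle libraries at 799.6, 754 and 670.5 CPM. The change against the low dose was -0.82 ± 0.05 (edgeR adjusted p = 2.58e-19), so this gene stood above the low dose at the medium dose and below it at the high dose. With library totals it was -1.18, and without single libraries of these doses -0.86 to -0.78. Both changes share the same low libraries.

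The mitochondrial ALDH1B1 and the lysine pathway enzyme ALDH7A1 fell as well. ALDH1B1 went from 38.2, 35.8 and 36.8 CPM with the low dose to 15.7, 16.0 and 15.5 CPM with the high dose of Astragali Radix. In the 57 libraries outside that group ALDH1B1 never left 34.6 to 41.8 CPM. Its change was -0.87 ± 0.05 (edgeR adjusted p = 6.45e-19), -1.23 with library totals and -0.90 to -0.83 without single libraries. ALDH7A1 went from 36.2, 36.1 and 39.3 CPM to 14.2, 10.2 and 15.0 CPM, under every other library of the series, and changed by -1.14 ± 0.08 (edgeR adjusted p = 2.85e-16). For ALDH7A1 library totals gave -1.50, and fits without single libraries -1.31 to -0.999.

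ALDH2, the mitochondrial acetaldehyde enzyme, went the other way, with uneven libraries. It was at 49.5, 53.5 and 54.3 CPM with the low dose and at 95.5, 81.7 and 51.3 CPM with the high dose. The first and second high libraries were the highest of the series, and the third lay among the low ones in CPM. The change of ALDH2 was 0.89 ± 0.09 (edgeR adjusted p = 1.16e-11). ALDH2 had 0.54 with library totals (adjusted p = 5.64e-06), a shift of over 1.5 times, and 0.74 to 1.07 without single libraries. ALDH2 overlaps an unnamed coding gene on the same strand at a mean of 4.2 CPM in vehicle.

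For the lipid aldehyde enzymes the high dose of Astragali Radix gave no stable direction. ALDH3A1 was at 29.2, 20.3 and 37.9 CPM and overlapped the low dose. With TMM scaling its change was 0.42 ± 0.10 (edgeR adjusted p = 2.37e-04). The ALDH3A1 call was lost with library totals (0.06, adjusted p = 0.582), with the groups fitted alone (adjusted p = 0.22) and without the third high library (0.13, adjusted p = 0.101). ALDH3A2 was at 115, 103 and 98.1 CPM, also overlapping, with 0.32 ± 0.05 by TMM (edgeR adjusted p = 5.03e-08) and 0.29 to 0.35 without single libraries. With library totals ALDH3A2 had -0.034 (adjusted p = 0.563), and the call was lost with no filter (0.0508) and with the groups alone (0.0833). Library totals moved the median of all genes in this comparison by -0.36, so the 2 scalings differ by about that amount for every gene.

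ALDH1A3 (14.9, 21.8 and 27.4 CPM) and ALDH9A1 (37.0, 42.8 and 45.1 CPM) were not called at the high dose of Astragali Radix, with changes of 0.21 ± 0.13 (edgeR adjusted p = 0.146) and 0.06 ± 0.06 (edgeR adjusted p = 0.392). Without the first high library, which had the 1.987% mitochondrial share, both were called, at 0.44 (adjusted p = 8.61e-04) and 0.17 (adjusted p = 0.00547). By library totals ALDH9A1 was instead lower, at -0.30 (adjusted p = 1.79e-05), and ALDH1A3 was at -0.16 (adjusted p = 0.25). Without the third high library they were at -0.043 (adjusted p = 0.522) and -0.048 (adjusted p = 0.741), so neither had a stable sign. The antisense gene ALDH1A3-AS1 fell in the same libraries to 2.81, 1.95 and 2.24 CPM from 11.9, 12.6 and 14.2 CPM, a change of -2.12 ± 0.10 (edgeR adjusted p = 3.37e-21).

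**Figure D2:**
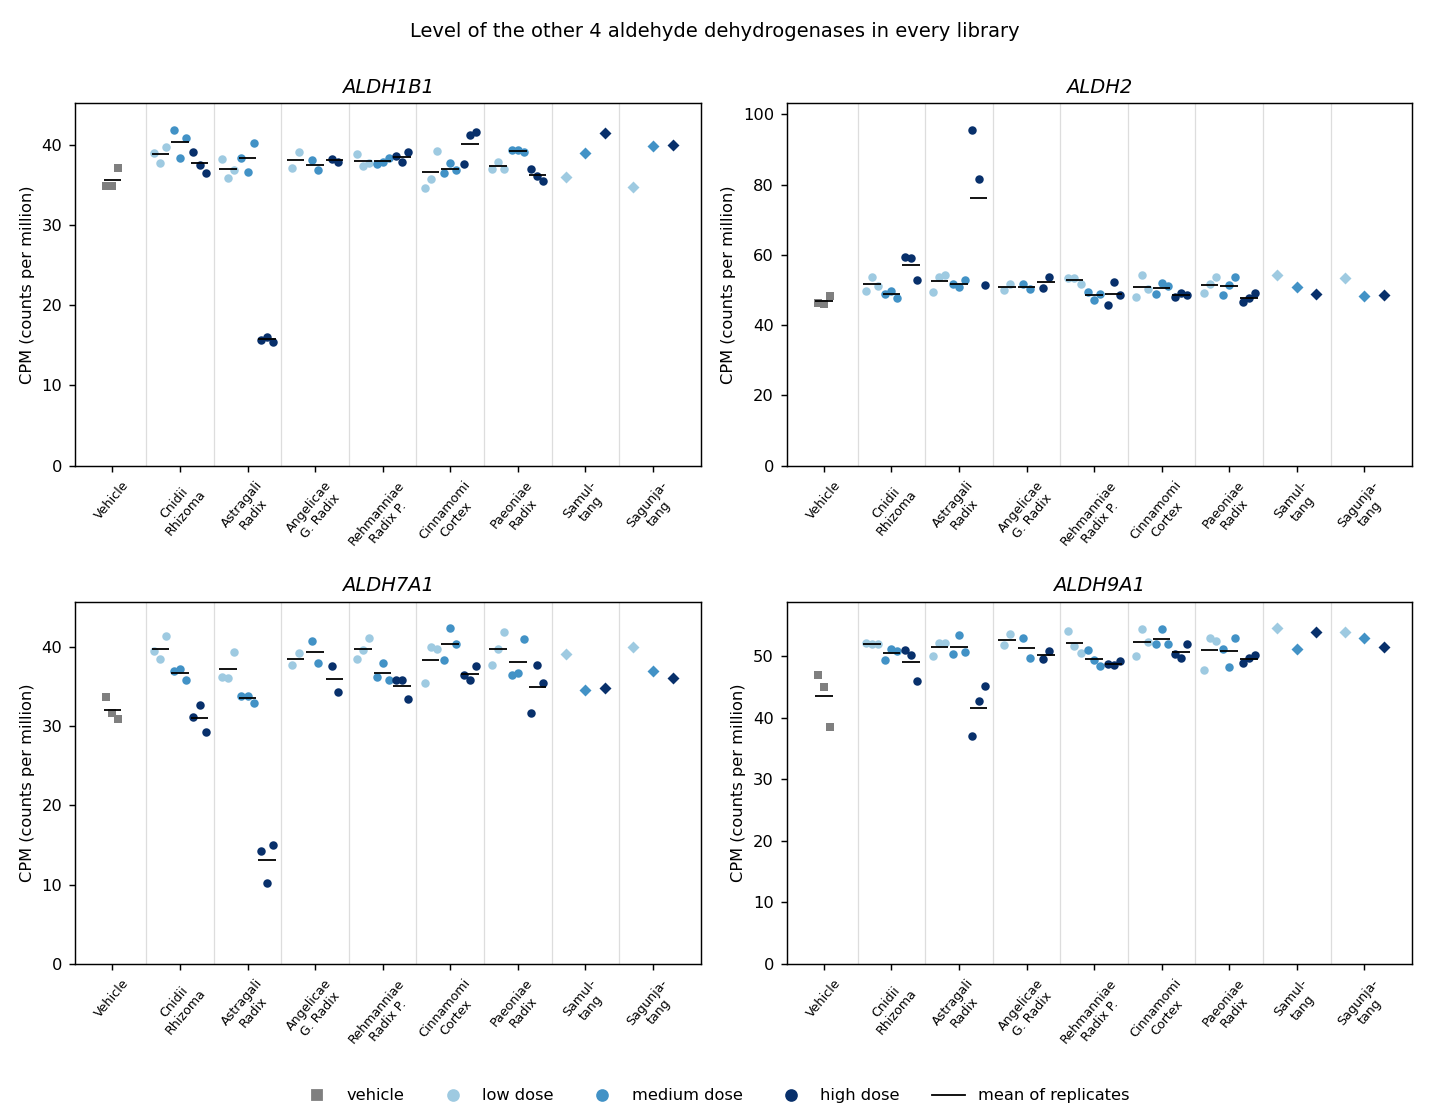
CPM of ALDH1B1, ALDH2, ALDH7A1 and ALDH9A1 (y axes, from 0) in each of the 60 libraries, by extract or formula (x axis) and dose (colour). Points are libraries and bars are means of 2 or 3 replicates. The Astragali Radix high libraries sit apart in ALDH1B1 (15.5 to 16.0 CPM) and ALDH7A1 (10.2 to 15.0 CPM), and 2 of them in ALDH2. The other 57 libraries run from 29.3 to 42.3 CPM in ALDH7A1 and from 45.8 to 59.3 CPM in ALDH2. ALDH7A1 is lower at the high than at the low dose of Cnidii Rhizoma.

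With the remaining 4 extracts 3 calls were made among the members at the high dose, in ALDH3A1 and ALDH3A2, and each was lost without any single library of its comparison. With Angelicae Gigantis Radix 2 of the 8 members passed, where 0.0644% of all genes did. ALDH3A1 went from 26.2 and 26.1 CPM to 39.8 and 40.9 CPM, a change of 0.65 ± 0.12 (edgeR adjusted p = 0.0104). ALDH3A2 went from 107.8 and 106.2 CPM to 126 and 129 CPM, a change of 0.27 ± 0.06 (edgeR adjusted p = 0.0311). Neither gene overlapped between doses, but with only 2 libraries per dose both calls were lost without any of the 4 libraries (adjusted p = 0.132 to 0.313 for ALDH3A1 and 0.219 to 0.751 for ALDH3A2).

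Cinnamomi Cortex gave 1 call among the members, ALDH3A2, where 0.281% of all genes passed. ALDH3A2 went from 97.5, 105.5 and 109 CPM to 116.5, 116.7 and 119.4 CPM, a change of 0.20 ± 0.05 (edgeR adjusted p = 0.0412). The doses did not overlap, but the call was lost without any of the 6 libraries (0.0592 to 0.287). ALDH3A1 went from 25.6, 23.9 and 23.9 CPM to 30.3, 32.1 and 30.8 CPM, also without overlap, at 0.37 ± 0.10 (edgeR adjusted p = 0.117). ALDH1A3 had 23.0, 26.5 and 26.6 CPM with the low and 30.6, 31.7 and 32.5 CPM with the high dose, and its change of 0.34 ± 0.12 was not called (edgeR adjusted p = 0.406).

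With Paeoniae Radix (1.77% of all genes called) and Rehmanniae Radix Preparata (0.117%), 0 of the 8 members passed in edgeR at the high dose, and at an unadjusted p under 0.05 there were 3 and 4. DESeq2 called 2 and 1 of them. ALDH3A1 went from 30.3, 29.3 and 26.4 CPM to 38.4, 38.6 and 37.4 CPM with Rehmanniae Radix Preparata, clear of overlap, and its 0.43 ± 0.10 narrowly missed the threshold (edgeR adjusted p = 0.0521). With Paeoniae Radix ALDH3A1 went from 24.4, 23.5 and 24.7 CPM to 28.8, 30.7 and 30.7 CPM, at 0.33 ± 0.10 (edgeR adjusted p = 0.0833). ALDH3A1 was thus higher at the high than at the low dose in every library of these 4 extracts, with calls that depend on the setting. ALDH3A2 was likewise higher in every library. How often other genes separate in this way was not tested, and with 2 or 3 libraries per dose separation can arise by chance. ALDH1A1 moved by -0.02 to 0.13 in the 4 extracts and was called in none. Its doses also separated, high above low, with Rehmanniae Radix Preparata and Angelicae Gigantis Radix. They overlapped with Paeoniae Radix and Cinnamomi Cortex. At the medium doses of the same 4 extracts edgeR and DESeq2 called 0 members, with 0% of all genes called by edgeR, 1 member (in Cinnamomi Cortex) at an unadjusted p under 0.05, and member changes between -0.10 and 0.22.

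**Figure D3:**
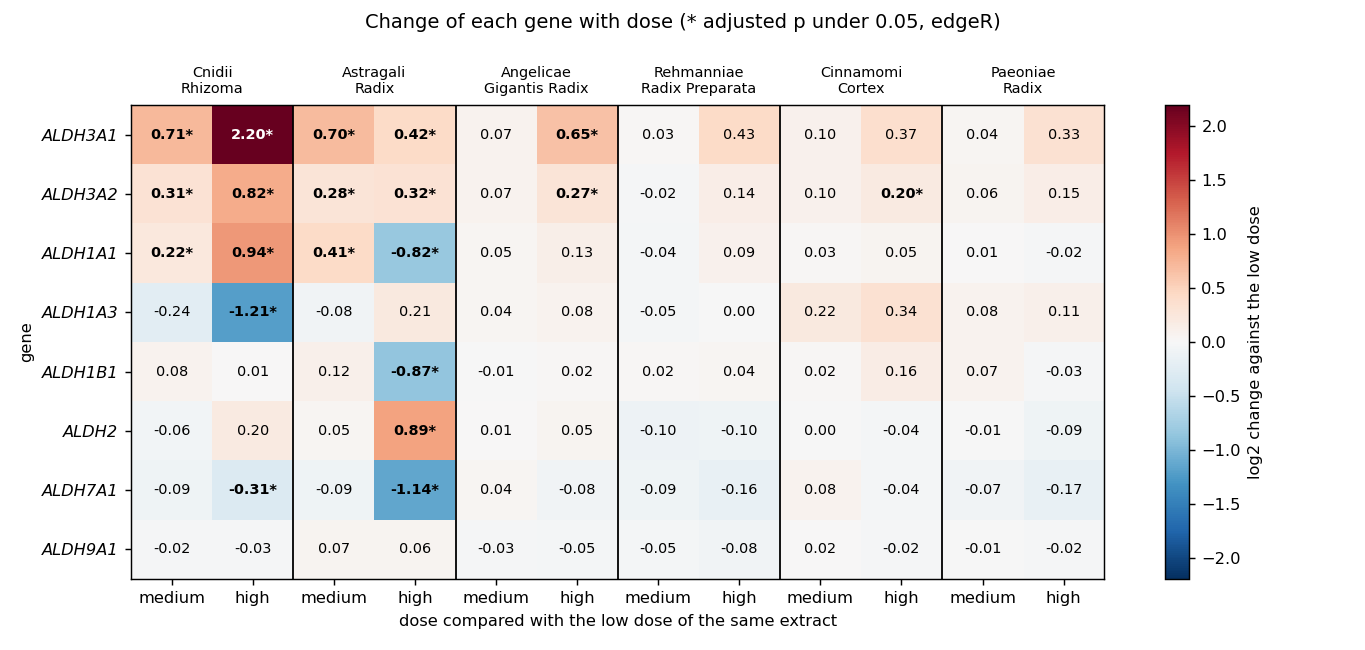
Log2 change of each gene (rows) at the medium and the high dose against the low dose of the same extract (columns), by edgeR on 54 libraries. Colour and numbers give the change, and a star and bold type mark an adjusted p under 0.05. ALDH3A1 and ALDH3A2 are positive at every high dose, ALDH1A1 is positive with Cnidii Rhizoma (0.94) and negative with Astragali Radix (-0.82) at the high dose, and outside those 2 extracts the changes run from -0.17 (ALDH7A1 with Paeoniae Radix) to 0.65 (ALDH3A1 with Angelicae Gigantis Radix).

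The vehicle adds a further reference, though its libraries carry their own code set in the labels and their spread was wide in some members. ALDH1A3 had 39.3, 30.1 and 23.8 CPM in the 3 vehicle libraries and ALDH9A1 46.9, 45.1 and 38.5 CPM. The low doses were pooled over the extracts other than Angelicae Gigantis Radix. Pooled, they differed from vehicle in 4 of the 8 members, where 10.8% of all genes did. ALDH1A1 was higher by 0.17 ± 0.04 (edgeR adjusted p = 0.00129), ALDH9A1 by 0.19 ± 0.05 (edgeR adjusted p = 0.00668) and ALDH7A1 by 0.22 ± 0.06 (edgeR adjusted p = 0.0105), and ALDH1A3 was lower, at -0.33 ± 0.10 (edgeR adjusted p = 0.0201). Leaving out single vehicle libraries left 1 to 4 calls, with 1 without the third vehicle library and 2 without the second. Not called were ALDH3A1 at -0.02 ± 0.08 (edgeR adjusted p = 0.93), ALDH3A2 at 0.10 ± 0.04 (0.0785), ALDH1B1 at 0.02 ± 0.04 (0.849) and ALDH2 at 0.09 ± 0.07 (0.487).

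Against vehicle, the high doses of Cnidii Rhizoma and Astragali Radix passed in 6 and 7 members, where 19% and 70.7% of all genes did. ALDH3A1 was 2.33 ± 0.10 above vehicle with Cnidii Rhizoma (edgeR adjusted p = 7.8e-22), and ALDH1A3 was at -1.49 ± 0.13 (edgeR adjusted p = 1.63e-11). Also higher were ALDH1A1 at 1.15, ALDH3A2 at 1.02, ALDH2 at 0.28 (edgeR adjusted p = 0.0236) and ALDH9A1 at 0.17 (0.0486), while ALDH1B1 at 0.07 and ALDH7A1 at -0.05 were not called (0.319 and 0.693). With Astragali Radix and TMM scaling, ALDH2 (0.99), ALDH3A1 (0.45), ALDH3A2 (0.42) and ALDH9A1 (0.24) were called higher than vehicle. ALDH7A1 (-0.99), ALDH1B1 (-0.88) and ALDH1A1 (-0.59) were below it, and ALDH1A3 (-0.22) was not called (edgeR adjusted p = 0.12). In CPM, however, ALDH3A1, ALDH3A2 and ALDH9A1 overlapped vehicle, at ratios of mean CPM of 1.11, 1.09 and 0.957. With library totals the median change of all genes was -0.29 in this comparison, and ALDH9A1 turned to -0.061. For the remaining extracts ALDH3A2 passed in all 4, at 0.18 with Paeoniae Radix (edgeR adjusted p = 0.00906), 0.24 with Cinnamomi Cortex (7.67e-04), 0.25 with Rehmanniae Radix Preparata (6.12e-04) and 0.36 with Angelicae Gigantis Radix (2.34e-05). ALDH3A1 passed with Rehmanniae Radix Preparata at 0.50 (edgeR adjusted p = 0.00137) and Angelicae Gigantis Radix at 0.58 (0.00116). ALDH1A1 passed with these and with Cinnamomi Cortex, at 0.25 (edgeR adjusted p = 6.08e-04), 0.28 (8.13e-04) and 0.19 (0.00914). Members called were 1 with Paeoniae Radix, 3 with Rehmanniae Radix Preparata, 2 with Cinnamomi Cortex and 3 with Angelicae Gigantis Radix, against 7.09%, 3.79%, 5.87% and 2.43% of all genes. ALDH1A3, ALDH1B1, ALDH2, ALDH7A1 and ALDH9A1 were called in none of these 4, with changes from -0.31 (ALDH1A3) to 0.18 (ALDH9A1). These comparisons share the vehicle libraries.

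Whether extracts differed in their effect was tested as the difference of their high against low changes. Cnidii Rhizoma and Rehmanniae Radix Preparata, which share a code set in the labels, differed in 4 of the 8 members, where 3.57% of all genes did. The differences were 1.77 ± 0.14 in ALDH3A1 (edgeR adjusted p = 1.14e-12), 0.85 ± 0.06 in ALDH1A1 (1.03e-12), 0.68 ± 0.06 in ALDH3A2 (3.14e-10) and -1.21 ± 0.18 in ALDH1A3 (1.03e-05). ALDH2 at 0.30 ± 0.13, ALDH7A1 at -0.14 ± 0.10, ALDH9A1 at 0.05 ± 0.09 and ALDH1B1 at -0.03 ± 0.07 were not called (edgeR adjusted p = 0.286 to 0.989). Astragali Radix and Cinnamomi Cortex, of another shared code set, differed in ALDH1A1, ALDH1B1, ALDH2 and ALDH7A1, where 59% of all genes did. Their difference in ALDH3A1 was 0.06 ± 0.14 (edgeR adjusted p = 0.749) and turned to -0.24 (adjusted p = 0.0236) without the third Astragali Radix high library. ALDH3A2 at 0.13 ± 0.06, ALDH1A3 at -0.13 ± 0.18 and ALDH9A1 at 0.08 ± 0.09 were not called either, and library totals turned ALDH3A2 to -0.21 and ALDH9A1 to -0.26. Astragali Radix against Cnidii Rhizoma, across code sets, differed in 7 of the 8 members, where 57.9% of all genes did. ALDH9A1 was the exception, at 0.09 ± 0.09 (edgeR adjusted p = 0.377).

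The formulas had 1 library per dose and no test. Samul-tang was highest in the lipid aldehyde enzymes at its high dose. ALDH3A1 was at 27.4, 34.6 and 68.2 CPM at its low, medium and high dose, with an exact binomial 95% interval of 65.1 to 71.4 for the high library, which covers counting error only. With Sagunja-tang ALDH3A1 was at 28.0, 31.2 and 44.3 CPM, and the interval of the high library was 41.9 to 46.7. Both high values lay under the 132.2 to 132.9 CPM of high Cnidii Rhizoma and above every low or vehicle library. ALDH3A2 was at 115.5, 121.6 and 166.5 CPM with Samul-tang and 112, 116 and 144 CPM with Sagunja-tang. ALDH1A1 was at 913, 913 and 1179 CPM with Samul-tang and 933, 936 and 968 CPM with Sagunja-tang. ALDH1A3 was at 26.4, 23.9 and 20.1 CPM with Samul-tang, and at 30.4, 26.8 and 26.5 CPM with Sagunja-tang. In both formulas the high library was above the low one in ALDH3A1, ALDH3A2 and ALDH1A1 and below it in ALDH1A3.

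Over the means of 24 groups, leaving out Astragali Radix high, ALDH3A1, ALDH3A2 and ALDH1A1 moved together and ALDH1A3 moved against them. Pearson's r of mean log2 CPM was 0.97 between ALDH3A1 and ALDH3A2, 0.94 between ALDH3A1 and ALDH1A1, and -0.88 between ALDH1A1 and ALDH1A3. With the 25th group included they were 0.97, 0.73 and -0.72. These points share scaling, and the doses of 1 extract are not independent, so the values are descriptions. Cnidii Rhizoma high also weighs heavily in them. Its mean in ALDH3A1 was 132.6 CPM, against a median of 29.2 CPM over the 60 libraries. How far each r, here and for the genes below, rests on that group was not tested. Among all genes tested, those most like ALDH3A1 were NQO1 (r = 0.989), AKR1B10 (0.989) and FECH (0.984), and with all 25 groups 0.916, 0.969 and 0.981. ALDH3A2 was most like NQO1 (0.979), TXNRD1 (0.977) and UGT1A10 (0.976), at 0.942, 0.697 and 0.753 over 25 groups. ALDH1A1 was most like AKR1C3 (0.978), HGD (0.971) and AKR1C2 (0.969), which dropped to 0.504, 0.740 and 0.496 with Astragali Radix high included. ALDH1A3 was most like MAP3K8 (0.916), PTGS2 (0.913) and LRRN4 (0.907), at 0.646, 0.909 and 0.905 over 25 groups.

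The other members followed other genes. ALDH1B1 was most like TUBGCP3 (0.875), NAT10 (0.854) and RUVBL1 (0.847), ALDH2 most like SIL1 (0.844), LGALS4 (0.820) and BBC3 (0.807), ALDH7A1 most like ARVCF (0.877), SYT8 (0.842) and GCHFR (0.837), and ALDH9A1 most like MICOS10 (0.907), ATP5F1A (0.906) and HARS2 (0.897). Over 25 groups the same r ranged from -0.296 for GCHFR to 0.987 for TUBGCP3.

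The remaining 11 genes of the family were set beside the 8, and 9 of them were tested. With Cnidii Rhizoma high against low 1 of these 9 passed, ALDH1L1, a folate enzyme, which fell by 0.56 ± 0.15 (edgeR adjusted p = 0.00997), against 10.2% of all genes, and the median change was 0.07. With Astragali Radix high against low 8 of 9 passed, 2 higher and 6 lower, where 70.2% of all genes passed and 34.1% were lower, with a median of -0.98 against 0 over all genes. By library totals 8 of 9 passed as well, 1 higher and 7 lower. ALDH5A1, which oxidises succinic semialdehyde, fell by 1.92 ± 0.14 (edgeR adjusted p = 1.4e-15), ALDH1L2 had a change of -1.53 ± 0.44 (edgeR adjusted p = 0.00236) and ALDH6A1, of valine breakdown, of -1.28 ± 0.11 (2.77e-13). ALDH16A1 and ALDH3B1 rose, by 0.60 ± 0.10 (edgeR adjusted p = 3.24e-06) and 0.44 ± 0.05 (2.29e-10). ALDH1L2 and ALDH3B2 were under 1 CPM in vehicle.

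**Figure D4:**
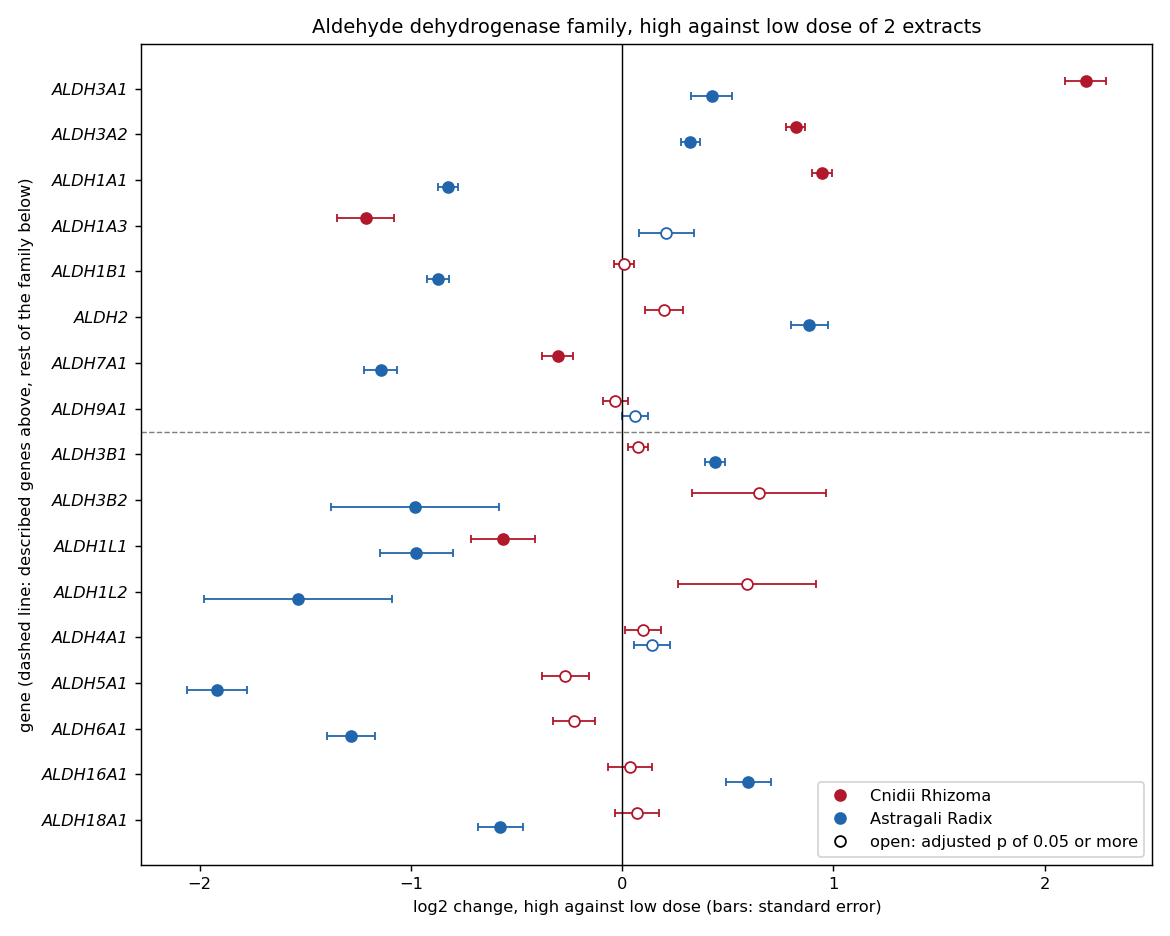
Log2 change at the high against the low dose (x axis, bars are standard errors) of the 17 family members tested (y axis), with Cnidii Rhizoma in red and Astragali Radix in blue. Filled points passed an adjusted p of 0.05 in edgeR. With Cnidii Rhizoma the members past 0.8 in size are ALDH3A1, ALDH3A2, ALDH1A1 and ALDH1A3, while with Astragali Radix most of the lower block lies left of 0, down to -1.92 for ALDH5A1.

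Genes of neighbouring pathways were followed from lists chosen with results of these data known. Their counts stand beside 10.2% of all genes called with Cnidii Rhizoma high against low (5.39% higher) and 70.2% with Astragali Radix (36.1% higher and 34.1% lower). In the NRF2 target list 27 of 28 genes rose with Cnidii Rhizoma high against low (median 1.21) and 26 rose and 1 fell with Astragali Radix (median 1.3), next to which ALDH3A1 had 2.20 and 0.42. The largest were AKR1C2 at 4.63 ± 0.12 (edgeR adjusted p = 9.95e-29) and AKR1C1 at 3.52 ± 0.21 (1.05e-16) with Cnidii Rhizoma, near-identical genes whose shares of reads are uncertain, and HMOX1, heme oxygenase, at 5.18 ± 0.11 (3.2e-33) with Astragali Radix. In the AhR target list 3 of 8 rose with Cnidii Rhizoma, NQO1 at 1.13 ± 0.04 (edgeR adjusted p = 2.54e-23), UGT1A6 at 1.04 ± 0.07 (6.68e-15) and SLC7A5 at 0.54 ± 0.08 (2.86e-06). The others tested, CYP1A1, CYP1B1, AHRR, TIPARP and NFE2L2, were not called. With Astragali Radix 6 of the 8 rose and 1 fell, and with library totals 4 rose and 2 fell. NQO1 is in both lists.

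Retinoid genes beside ALDH1A1 and ALDH1A3 were mixed. Of 17 tested, 2 rose and 5 fell with Cnidii Rhizoma high against low. RDH10, which makes the retinal these enzymes use, rose by 0.32 ± 0.06 (edgeR adjusted p = 7.96e-05) and DHRS9, a retinol dehydrogenase, by 1.42 ± 0.34 (0.00344). RARRES2, RARRES1 and PLAAT4, named as retinoic acid responders, fell, with -1.25 ± 0.20 (edgeR adjusted p = 9.11e-06), -1.05 ± 0.19 (7.15e-05) and -1.07 ± 0.14 (1.4e-07). With Astragali Radix 5 rose and 5 fell (5 and 10 with library totals), a smaller share than that of all genes by TMM, with DHRS9 at 4.86 ± 0.31 (edgeR adjusted p = 1.19e-17) and RARRES1 at -2.23 ± 0.24 (4.97e-11). Among 19 genes that reduce aldehydes and ketones or oxidise alcohols, the enzymes working beside the members, 8 rose and 2 fell with Cnidii Rhizoma and 13 rose and 3 fell with Astragali Radix. ADH1C, an alcohol dehydrogenase, fell in both, with -1.67 ± 0.30 (edgeR adjusted p = 6.39e-05) and -3.37 ± 0.39 (5.67e-10).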

How the data were processed

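The deposited table holds expected counts per gene, made by the authors with Trim Galore 0.6.5, FastQC 0.11.9, STAR 2.7.3a and RSEM 1.3.3 on hg38, per the submitters' processing notes. Annotation release and strand setting were not given in the sources used here. Reads of near-identical genes are split by estimation in RSEM, so such genes are uncertain one by one. Of the 273 columns, 213 belong to no library mapped here and were not used. Expected counts were rounded to whole numbers (8.78% were not whole), moving library totals by at most 0.000184%. Entries without a name held 0.0504% of counts, and names came from a supplied table or GENCODE v29. CPM is the count per 1000000 counts of the library.

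Tests used edgeR 4.0.16 in R 4.3.3: the quasi-likelihood F test after TMM scaling and filterByExpr by group, in 1 model of 54 replicated libraries in 19 groups, with 17089 genes tested, 22 comparisons and Benjamini-Hochberg adjustment over all genes tested in each (threshold 0.05). SE is the log2 change over the root of F, and intervals are 95%. The procedure was tested on simulated counts. Alternatives were scaling by library totals, no filter, DESeq2 1.42.0, the replicate number as a block, the groups compared alone, leaving out the Astragali Radix high libraries, and leaving out each of 54 libraries. Promoters (250 bases) are those of RefSeq on GRCh38.p14, with an entry for 6 of the 8 members, all but ALDH3A1 and ALDH2.

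The members, lists and comparisons were chosen with earlier results of these data known. The text gives all 8 members, by value or range, any other family member, up to 3 called genes with the largest change per list and direction, and the 3 genes most like each member by r over 24 groups (prior count 2). The formulas, with 1 library per dose, entered no test.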

Additional observations from a re-analysis of the deposited data

Results flagged for a closer look

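The change from low to high dose differed between extracts, by a test of the difference itself in edgeR, in 15 cases among the 8 members and 3 pairs of extracts. Of all genes tested, 3.57% differed between Cnidii Rhizoma and Rehmanniae Radix Preparata. The share was 59% between Astragali Radix and Cinnamomi Cortex and 57.9% between Astragali Radix and Cnidii Rhizoma. Between Cnidii Rhizoma and Rehmanniae Radix Preparata the difference was 1.77 in ALDH3A1, 0.68 in ALDH3A2, 0.85 in ALDH1A1 and -1.21 in ALDH1A3, each with the first extract minus the second on the log2 scale.

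Astragali Radix minus Cinnamomi Cortex gave -0.88 in ALDH1A1, -1.03 in ALDH1B1, 0.93 in ALDH2 and -1.10 in ALDH7A1. Astragali Radix minus Cnidii Rhizoma gave -1.77 in ALDH3A1, -0.50 in ALDH3A2, -1.77 in ALDH1A1, 1.42 in ALDH1A3, -0.88 in ALDH1B1, 0.69 in ALDH2 and -0.84 in ALDH7A1. These 2 sets share the Astragali Radix libraries, whose high dose stood apart in scaling and mitochondrial share. In them 4 and 7 of the 8 members differed, where 59% and 57.9% of all genes tested did. The 4 of 8 does not exceed that share. The part of those library properties in the differences was not tested.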

How the results depend on the processing

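Of the 285 alternative values for the number of members called per comparison, 243 were within 1.5 times the value reported. These include comparisons with 0 members called that stayed at 0. Cnidii Rhizoma high against low kept 5 calls in every leave-one-out fit, and Astragali Radix high against low 5 to 8. Counts moved in the comparisons with few calls, and the share of all genes called moved too: without the Astragali Radix high libraries it went from 0.281% to 6.08% in Cinnamomi Cortex, 1.77% to 9.51% in Paeoniae Radix and 0.117% to 1.43% in Rehmanniae Radix Preparata, high against low. With the groups alone these shares were 2.45%, 6.06% and 1.15%, and in DESeq2 1.02%, 3.14% and 0.372%. Without the Astragali Radix high libraries, Paeoniae Radix high against vehicle went from 7.09% to 27.1% and Cinnamomi Cortex high from 5.87% to 26.4%. Paeoniae Radix high against low (0) had 1 with no filter, 3 without the Astragali Radix high libraries, 2 with the groups alone and 2 in DESeq2. Rehmanniae Radix Preparata (0) had 1 with library totals, 1 with no filter, 2 without the Astragali Radix high libraries, 2 alone and 1 in DESeq2. Cinnamomi Cortex (1) had 0 with library totals, 4 without the Astragali Radix high libraries, 3 alone, 2 in DESeq2 and 0 in each leave-one-out fit. Angelicae Gigantis Radix (2) had 1 with library totals, 1 with no filter and 0 in each leave-one-out fit. Cnidii Rhizoma medium against low (3) had 1 with no filter. Against vehicle, Paeoniae Radix high (1) had 2 with library totals, 0 with no filter, 5 without the Astragali Radix high libraries, 3 in DESeq2 and 1 to 2 on leave-one-out. Cinnamomi Cortex high (2) had 4, 0, 6 without the Astragali Radix high libraries, 5 alone and 1 to 3 on leave-one-out. The pooled low doses (4) had 2 with no filter and 1 to 4 on leave-one-out. The difference of Astragali Radix and Cinnamomi Cortex (4) had 7 with library totals and 4 to 7 on leave-one-out.

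The 2760 other alternative values cover changes of single members, list counts and levels, and only the changes of members could reverse. With direction kept, 69 of them gained a call and 63 lost it. Where either value was called, direction reversed in 7 changes of members, 6 of them with library totals. These were Astragali Radix high against low in ALDH3A2 (-0.034) and ALDH9A1 (-0.30), ALDH9A1 against vehicle (-0.061), Astragali Radix minus Cinnamomi Cortex in ALDH3A2 (-0.21) and ALDH9A1 (-0.26), and Astragali Radix minus Cnidii Rhizoma in ALDH9A1 (-0.22). The seventh was ALDH3A1 in Astragali Radix minus Cinnamomi Cortex, at -0.24 without the third Astragali Radix high library (-0.24 to 0.26 on leave-one-out). Of the lists, without the Astragali Radix high libraries the counts called with Cnidii Rhizoma went from 1 to 3 for the rest of the family, from 7 to 11 for the retinoid genes and from 3 to 6 for the substrate genes, while all genes called went from 10.2% to 23.7%. The cause was not tested.

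Same-numbered libraries shared little of their deviation from the group means (r = -0.058 to 0.116, 1 of 51 above 0.1). Libraries with other numbers were not compared in this way, so whether the numbers pair them was not tested. The replicate block changed the number of members called in 2 of 22 comparisons, and in Rehmanniae Radix Preparata high against low it gave 1 in place of 0. The smallest count behind any member was 226, and the part of counting error in the spread of members with lower counts was not tested. Precision is limited by the 2 or 3 libraries per group (1 per formula dose), and at the Astragali Radix high dose also by its spread and scaling. The 54 libraries share 1 model, so the spread of that group also enters the tests of the other extracts. Without it, genes called with Cnidii Rhizoma high against low went from 10.2% to 23.7%. A member not called in another extract is thus not shown to be unchanged.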

Other observations

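Of 19 genes tested from lysine breakdown, choline and carnitine handling, sphingolipid turnover and ethanol oxidation, 3 rose with Cnidii Rhizoma high against low: SHMT2 by 0.40 ± 0.09 (edgeR adjusted p = 9.69e-04), AASDHPPT by 0.19 ± 0.06 (0.0209) and SGPL1, the sphingosine phosphate lyase whose aldehyde product ALDH3A2 oxidises, by 0.14 ± 0.04 (0.03). With Astragali Radix 6 rose and 9 fell, and SPHK1, which makes sphingosine phosphate, rose by 4.65 ± 0.27 (edgeR adjusted p = 7.4e-19) while CHDH, which makes betaine aldehyde from choline, fell by 1.28 ± 0.06 (2.53e-22). In the same comparisons 10.2% and 70.2% of all genes were called. Without the Astragali Radix high libraries 6 of the 19 were called with Cnidii Rhizoma, 3 higher and 3 lower, and with library totals 2 rose and 11 fell with Astragali Radix.

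In the PPAR target list 10 of 13 genes rose with Cnidii Rhizoma and 8 rose and 4 fell with Astragali Radix (4 and 5 with library totals). Of all genes 5.39% were higher with Cnidii Rhizoma, and 36.1% higher and 34.1% lower with Astragali Radix. FABP1, the fatty acid binding protein of enterocytes, rose by 2.21 ± 0.20 with Cnidii Rhizoma (edgeR adjusted p = 2.03e-11) and fell by 1.65 ± 0.33 with Astragali Radix (2.74e-05). The difference between the 2 extracts was -3.86 ± 0.38 in FABP1 (edgeR adjusted p = 1.24e-11).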
